A study of Mus musculus with 14 samples.

Results

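L1Md_Gf is a young subfamily of the mouse LINE1 (L1) retrotransposons, and its copies were taken from the deposited tables of transposable element (TE) copies as every row that bears exactly that subfamily name, whatever its length. The rule gave 1080 copies of 3725827 TE copies in all, beside 23688 copies of L1Md_T and 16844 of L1Md_A, and the row of the whole L1Md_Gf subfamily was taken from the tables of counts of both stages. The values come from polyadenylated RNA of germ cells sorted from mouse testes on a C57Bl6/J background, in 14 libraries. Spermatogonia (Spg), the premeiotic germ cells, were sorted as live cells negative for β2-microglobulin and positive for Ep-CAM from testes at postnatal day 14, with 3 libraries from Dnmt3CKO/KO animals, which lack the DNA methyltransferase DNMT3C (KO below), and 3 from wild-type littermates (WT). Spermatocytes (Spc), the meiotic germ cells, were sorted by DNA content from animals older than 20 days, with 4 KO and 4 WT libraries. KO germ cells arrest at the pachytene stage of meiosis, and the WT spermatocyte sort holds later stages as well, so that the genotype and the mixture of stages cannot be told apart in spermatocytes.

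An L1 element is copied through an RNA intermediate. A full-length element carries a promoter at its 5′ end that is read by RNA polymerase II, followed by the reading frames of an RNA-binding protein, ORF1p, and of a protein with endonuclease and reverse transcriptase activity, ORF2p, and most genomic copies lack the 5′ end. L1Md_A, L1Md_T and L1Md_Gf are the L1 subfamilies with recently active members in the mouse, and in male germ cells their promoters are silenced by DNA methylation that the piRNA pathway guides in the fetal testis and that DNMT3C helps to set.

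The 1080 copies were mostly fragments. Their length ran from 11 to 6540 bases with a median of 1077, 111 were at least 5000 bases long (called long below), and 11 reached 6000. By chromosome, 275 copies lay on the Y, 115 on the X and the rest on autosomes and unplaced scaffolds, and only 1 of the 275 Y copies was long. On the Y, 105 copies stood between an older L1_Mus3 element and an L1Md_A element (within 50 bases and on the same strand), with a median length of 4960 bases, and no copy elsewhere had this pair of neighbours. Over all chromosomes, 260 copies were followed directly by an L1Md_T annotation, 160 by L1Md_A and 475 by no L1. Of the long copies, 93 lay on the plus strand and 18 on the minus strand, whereas long L1Md_T copies were split 2293 to 2766 and long L1Md_A copies 1600 to 1704. The annotation cuts elements at multiples of 500000 bases, and 40 L1Md_Gf entries start or end at such a position.

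Since no genome sequence was at hand, L1Md_Gf sequence could be read only where an annotated exon overlaps a copy, which 6 copies had. Stretches of 2 of them, chosen after their values were seen, are shown here, 1 from the longest of the 6, which had reads in KO, and 1 from a short copy without. L1Md_Gf_dup375 (chromosome 8, 93505743 to 93511032, plus strand, GRCm38, 5290 bases) overlaps the first exon of a transcript of Ces5a, a carboxylesterase gene on the opposite strand. The 300 bases below are positions 727 to 1026 from the 5′ end of this copy, chr8:93506469-93506768, read along the L1. L1Md_Gf_dup909 (chromosome 13, 15926467 to 15927150, minus strand, 684 bases) overlaps an exon of B230303A05Rik in the same orientation, and the stretch from position 484 to its end at 684, chr13:15926467-15926667, are given along the L1 as well. Capitals mark CG dinucleotides, the sites that DNA methyltransferases act on.
L1Md_Gf_dup375: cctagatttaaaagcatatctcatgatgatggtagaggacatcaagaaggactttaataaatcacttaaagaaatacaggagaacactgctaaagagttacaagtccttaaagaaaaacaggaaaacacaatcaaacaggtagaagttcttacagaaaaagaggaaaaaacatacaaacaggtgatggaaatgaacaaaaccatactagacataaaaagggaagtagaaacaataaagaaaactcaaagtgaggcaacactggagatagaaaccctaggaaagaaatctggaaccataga
L1Md_Gf_dup909: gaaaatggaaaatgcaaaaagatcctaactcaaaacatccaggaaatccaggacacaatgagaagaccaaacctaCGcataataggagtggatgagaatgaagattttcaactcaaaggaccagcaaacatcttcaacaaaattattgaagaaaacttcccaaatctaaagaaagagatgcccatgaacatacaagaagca
Both stretches were open in 1 reading frame over their whole length, with 0 stop codons, and they held 0 and 1 CG dinucleotides, where the median of 32817 RefSeq promoter windows of GRCm38, 300 bases each, was 7. Neither stretch was chosen as promoter sequence, and the second spans only 201 bases. The CG content of L1Md_Gf promoters was not measured, so these counts do not describe them. In spermatocytes L1Md_Gf_dup375 had 36, 22, 35 and 20 reads in KO and 0, 1, 0 and 0 in WT, at least 10.2-fold higher against a floor of 3 reads per library, and 1, 3 and 8 against 0 in every WT library of spermatogonia. L1Md_Gf_dup909 had no read in any KO library and 2 in 1 WT library of spermatogonia.

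Library totals ran from 40555726 to 53323651 counts. The 95% Wilson interval of the L1Md_Gf share of counts was 0.0270 to 0.0280% around 0.0275% in KO replicate 1 of the spermatogonia and 0.000744 to 0.000907% around 0.000821% in WT replicate 1, and such intervals cover counting error only. Dnmt3c RNA itself was not lower in the libraries labelled KO (log2 fold change 0.10 in spermatogonia and 0.77 in spermatocytes, edgeR adjusted p 0.9996 and 0.124, from 11 to 116 counts per library), so it did not serve as a check of the labels. In spermatogonia the 8 spermatogonial markers summed to 2804 to 3141 CPM (counts per 1000000 TMM-scaled library counts) in KO and 2452 to 3133 in WT. The 7 markers of early meiosis summed to 777 to 1244 CPM in KO and 1129 to 1461 in WT there. In spermatocytes these 7 summed to 1045 to 2047 and 1178 to 2000, so the spermatogonia sort held early meiotic RNA as well. The 5 Sertoli markers summed to 133 to 415 CPM in KO and 94.7 to 357 in WT spermatogonia. The 5 pachytene markers summed to 15.4 to 19.3 CPM in KO and 72.1 to 1042 in WT spermatogonia. In spermatocytes they summed to 14.98 to 41.8 in KO and 4962 to 10441 in WT, and all 5 fell. The 8 spermatogonial markers summed to 1356 to 2066 against 137 to 713 CPM there and 6 of them rose, and the 4 macrophage markers summed to 15.1 to 72.8 against 1.93 to 3.56 and all 4 rose. No marker of any of the 9 cell type lists passed the test in spermatogonia. In spermatocytes 3 of 7 markers of early meiosis rose and 1 fell, all 4 spermatid markers fell, 2 of 3 peritubular and all 4 Leydig markers rose, and no Sertoli or erythroid marker passed. The part of these differences in the L1Md_Gf values below was not tested. In such bulk samples fewer cells of a type and less RNA per cell cannot be told apart.

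In spermatogonia, the comparison of KO and WT asked whether L1Md_Gf RNA responds to the loss of DNMT3C in this sort, early meiotic RNA included. L1Md_Gf counts were 13563, 10083 and 4768 in KO and 391, 320 and 341 in WT, which is 195 ± 87.1 and 7.83 ± 0.498 CPM (SD, n = 3). The groups were far apart, and the KO libraries differed among themselves far more than the WT libraries did. The log2 fold change was 4.64 (SE 0.36, edgeR quasi-likelihood test, Benjamini-Hochberg adjusted p 0.00352), a 24.9-fold rise, where 16 of 21580 genes and TE subfamilies (0.0741%) passed the threshold of 0.01. Among 128 L1 subfamilies tested, 3 passed, all of them higher, and L1Md_Gf had the largest fold change of the 128 and the second largest of 921 TE subfamilies. The call was lost without KO replicate 2 (4.58, adjusted p 0.0209), without WT replicate 1 (4.66, adjusted p 0.0131) and without WT replicate 2 (4.66, adjusted p 0.0109), with little change of the fold.

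In spermatocytes the same comparison gave counts of 35006, 16972, 32047 and 40495 for KO and of 278, 120, 642 and 283 for WT, which is 538 ± 199 and 8.12 ± 4.10 CPM (SD, n = 4). The lowest KO library, replicate 2, lay far above the highest WT library, replicate 3. The log2 fold change was 6.05 (SE 0.52, edgeR adjusted p 1.15e-05), a 66.3-fold rise, the largest among 127 L1 subfamilies and the third among 929 TE subfamilies, with 57.4% of all genes and TE subfamilies past the threshold. Of the 127 L1 subfamilies 25 rose and 6 fell, and their median log2 fold change was 0.25. With library totals in place of TMM the median over all genes was 0.79 instead of 0.11, and L1Md_Gf stood at 6.66.

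The other young L1 subfamilies place this response. In spermatogonia the log2 fold change was 4.13 (SE 0.33, edgeR adjusted p 0.00352) for L1Md_T and 3.44 (SE 0.26, adjusted p 0.00278) for L1Md_A. L1Md_F, L1Md_F2 and L1Md_F3, older relatives, stood at 0.91, 0.58 and 0.43 with adjusted p of 0.476, 0.787 and 0.926. In spermatocytes L1Md_T and L1Md_A stood at 5.69 and 5.88 (adjusted p 7.19e-06 and 1.04e-05), L1Md_F and L1Md_F2 rose by 1.61 and 1.956 (adjusted p 0.00314 and 0.000317), and L1Md_F3 stood at 0.69 (adjusted p 0.0201). Without KO replicate 2 or WT replicate 1 the spermatogonia calls of L1Md_T (4.07 and 4.05, adjusted p 0.0209 and 0.0156) and L1Md_A (3.24 and 3.34, adjusted p 0.0108 and 0.0121) were lost, that of L1Md_T also without WT replicate 2 (4.20, adjusted p 0.0109) or 3 (4.15, adjusted p 0.0101). In spermatocytes the L1Md_F call was lost without WT replicate 1 (1.58, adjusted p 0.0103), and summing replicates 1 and 4 into a single library also lost it (1.52, adjusted p 0.0218). L1Md_F3 passed without KO replicate 2 (0.88, adjusted p 0.00165) and with library totals (1.36, adjusted p 0.000609). L1Md_Gf was the least abundant of the 3 strongly responding subfamilies at every stage, with 21.6 to 23.5 L1Md_T counts for each L1Md_Gf count in KO spermatogonia and 23.3 to 25.1 in KO spermatocytes. Since a read may align to copies of several young subfamilies, their counts are not independent.

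**Figure D1:**
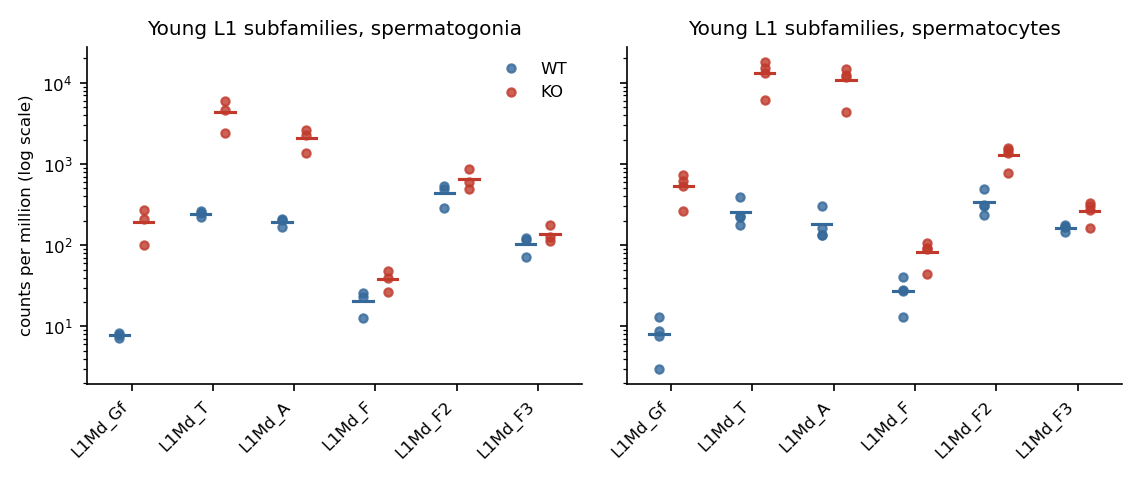
CPM (TMM-scaled, log axis) of 6 young L1 subfamilies in each library of spermatogonia (left) and spermatocytes (right), with WT in blue, KO in red and a bar at each group mean. L1Md_Gf sits lowest in WT, at 7.83 and 8.12 on average, and reaches 195 and 538 in KO without overlap between the groups.

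Whether L1Md_Gf rose more than its relatives was asked by the ratio of its counts to theirs within each library. The log2 ratio of L1Md_Gf to L1Md_T counts was -4.49 ± 0.0629 in KO and -4.97 ± 0.199 in WT spermatogonia (n = 3), without overlap. By exact permutation p was 0.10, which is the least that 3 against 3 libraries can give, and 0.114 adjusted over 8 such tests. In spermatocytes it was -4.60 ± 0.0437 and -5.09 ± 0.533 (n = 4), again without overlap, with an exact permutation p of 0.0286, the least possible for 4 against 4, and an adjusted p of 0.0762. Spermatocyte replicates 1 and 4 resembled each other more than other pairs did, yet the permutation tests here and below count them as separate libraries. Merged, they would leave 3 against 3 libraries, where an exact permutation p cannot fall under 0.10. WT replicate 2 had the lowest ratio, -5.87, and without it the difference fell from 0.49 to 0.22. Against L1Md_A the log2 ratio was 1.13 higher in KO spermatogonia (-3.50 ± 0.372 against -4.63 ± 0.240, exact p 0.10, adjusted 0.114) without overlap. In spermatocytes the groups overlapped, at -4.29 ± 0.162 and -4.58 ± 0.645 (exact permutation p 0.486, adjusted 0.486), and the difference of 0.29 became -0.00056 without WT replicate 2. These differences depend on the measure. With the summed TPM of copies in place of counts they were 1.444 against L1Md_T and 3.004 against L1Md_A in spermatogonia (exact permutation p 0.10 for both), and 1.494 and 2.24 in spermatocytes (exact permutation p 0.0286 for both, unadjusted). No ratio of counts passed 0.05 after adjustment, and none could. Even the least possible p in all 8 tests, which include the shares below, stays above 0.05 once adjusted. The adjusted values therefore cannot decide whether these measures differ.

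Between the stages, the KO effect on L1Md_Gf had a log2 value 1.35 larger in spermatocytes (SE 0.61, adjusted p 0.0838 in edgeR, normal 95% interval 0.16 to 2.55), which did not pass the threshold that 24.9% of genes and TE subfamilies passed. The same difference was 2.38 for L1Md_A (SE 0.54, adjusted p 0.00380) and 1.49 for L1Md_T (SE 0.51, adjusted p 0.0300). The L1Md_A call was lost without KO replicate 3 of the spermatogonia (2.24, adjusted p 0.0106) and with spermatocyte replicates 1 and 4 summed (2.11, adjusted p 0.0159). L1Md_T passed with library totals (2.13, adjusted p 0.00814) and without KO replicate 2 (1.82, adjusted p 0.00624) or WT replicate 3 (1.78, adjusted p 0.00754) of the spermatocytes. KO spermatocytes stood 1.89 above KO spermatogonia in L1Md_Gf (SE 0.45, edgeR adjusted p 0.0202), above the threshold of 0.01, which 2.99% of features passed, and the adjusted p was 0.00126 in DESeq2's Wald test. WT spermatocytes stood at 0.54 above WT spermatogonia (SE 0.44, adjusted p 0.295, where 51.4% of features passed), a difference that turns to -0.22 under scaling by library totals. These 3 comparisons share libraries with those above.

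The tables of single copies give TPM values, which divide the reads of a copy by its length and are scaled to 1000000 over all TE copies of a library, and the whole reads behind them were recovered from TPM and length. L1Md_Gf copies held 4639 to 13404 reads per KO library and 267 to 341 per WT library of spermatogonia, and 16793 to 40290 and 94 to 581 in spermatocytes. In KO spermatogonia 487 of the 1080 copies had a read in at least 1 library and 113 had 10 or more in each of the 3. In WT spermatogonia 193 had a read and 1 had 10 or more in each library. In KO spermatocytes these numbers were 595 and 198, and in WT spermatocytes 209 and 2. The 485 copies without a read in KO spermatocytes were thus not detected at this depth, and where copies are near-identical the reads of 1 copy may have been given to another.

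Reads came from many copies in KO. The 5 copies with the most reads held 13.1% of all L1Md_Gf reads in KO spermatogonia and 13.1% in KO spermatocytes, and 39 copies were needed to reach 50% in either stage. In WT the 5 highest held 31.5% and 38.6%, and 20 and 12 copies reached 50%. By TPM the 10 highest copies of a library held 32.7% ± 2.68 of the summed L1Md_Gf TPM in KO and 54.2% ± 6.52 in WT spermatogonia (n = 3, exact permutation p 0.10, adjusted 0.114). In spermatocytes they held 30.6% ± 1.503 and 58.8% ± 10.5 (n = 4, exact permutation p 0.0286, adjusted 0.0762). The groups did not overlap in either stage, and the WT values rest on the few reads given above.

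Long copies took a larger share in KO. In the KO spermatocyte libraries 15.9 to 16.5% of the summed L1Md_Gf TPM came from copies of at least 5000 bases, and 5.33, 4.41, 5.80 and 5.38% in WT. The difference was 10.97 percentage points, with an exact permutation p of 0.0286 and an adjusted p of 0.0762. In spermatogonia the shares were 14.7, 15.5 and 13.9% in KO and 8.16, 4.37 and 13.8% in WT, where WT replicate 3 came close to the KO libraries (exact permutation p 0.10, adjusted 0.114). Counted in reads, in which each base is weighted alike, long copies held 46.7 to 48.9% of L1Md_Gf reads in KO spermatocytes against 11.7 to 17.4% in WT, a difference of 34.0 percentage points. With 3000 bases as the limit the difference in TPM shares was 3.28 points in spermatocytes (exact permutation p 0.143), and WT replicate 1, at 26.2%, lay above every KO library. In spermatogonia it was 3.25 points with 3000 bases (exact permutation p 0.30), where WT replicate 3, at 22.9%, lay above 2 of the KO libraries, and 2.84 with 6000 bases, against 5.93 with 5000.

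**Figure D2:**
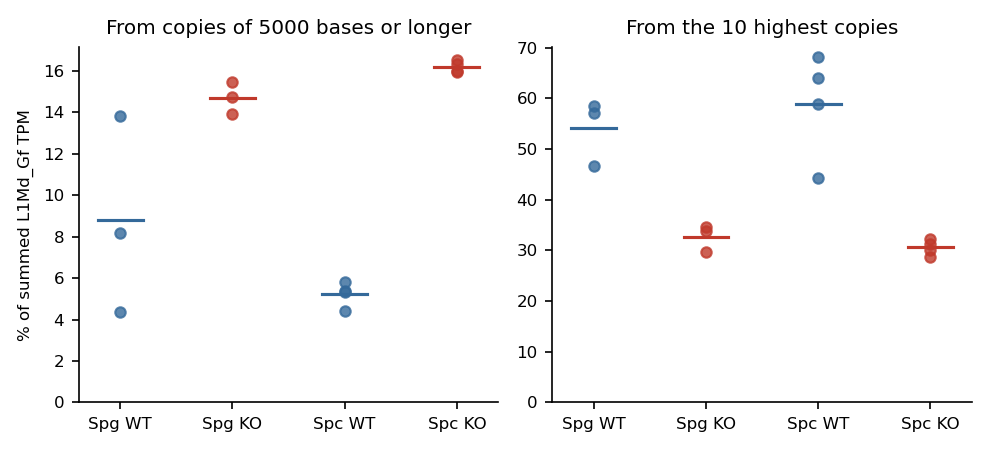
Percent of the summed L1Md_Gf TPM of each library that came from copies of at least 5000 bases (left) and from the 10 highest copies of that library (right), with 1 point per library and a bar at the group mean. KO spermatocyte libraries lie at 15.9 to 16.5% on the left and 28.8 to 32.3% on the right, apart from WT in both panels.

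The position of a copy went with its RNA level in KO. The 275 Y copies together had 208 reads in KO spermatogonia and 579 in KO spermatocytes, or 0.0872 and 0.182 reads per kb and library, and copies off the Y had 55.2 to 82.2 times as many reads per base in the KO libraries of spermatogonia and 93.7 to 112 times in spermatocytes. Off the Y, copies followed by L1Md_T had 0.199 ± 0.0906 reads per kb and per 1000000 library counts (RPM per kb) in KO spermatogonia and 0.691 ± 0.225 in KO spermatocytes. Copies with no L1 downstream had 0.0829 ± 0.0355 and 0.298 ± 0.0921, and the ratio of the first class to the second was 2.32 to 2.49 in the 3 spermatogonia libraries and 2.22 to 2.41 in the 4 spermatocyte libraries. The spread over libraries in each value is thus mostly shared by both classes. Among long copies alone, those followed by L1Md_T stood at 0.710 ± 0.226 and those with no L1 downstream at 0.365 ± 0.105 in KO spermatocytes, and among shorter copies the values were 0.664 ± 0.223 and 0.278 ± 0.0884.

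An element can be split in the annotation between L1Md_Gf and a neighbouring name, so a copy followed by L1Md_T may be the first part of a longer element. Copies followed by L1Md_T held 56.8 to 57.7% of L1Md_Gf reads in KO spermatogonia libraries and 56.1 to 57.7% in KO spermatocytes, against 36.7 to 51.3% and 12.8 to 25.8% in WT. Long copies off the Y had 1.51 to 1.75 times the reads per base of copies of 1201 to 4999 bases in KO spermatogonia and 1.56 to 1.72 times in KO spermatocytes. The level did not rise steadily with length. Long copies stood at 0.149 and 0.532 RPM per kb in the 2 stages, and copies of 201 to 1200 bases at 0.129 and 0.414. Copies of up to 200 bases stood highest, at 0.366 and 1.21, with reads on only 8 and 14 of 102 copies. Long copies on the plus strand had 2.31 to 2.47 and 1.90 to 2.42 times the reads per base of the 18 on the minus strand. Copies within a gene body and in its orientation stood at 0.588 ± 0.208 RPM per kb in KO spermatocytes, those in the opposite orientation at 0.409 ± 0.118 and those outside genes at 0.397 ± 0.124, with overlapping ranges. These are descriptions of copy classes without a test, since copies share libraries, sequence and reads.

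**Figure D3:**
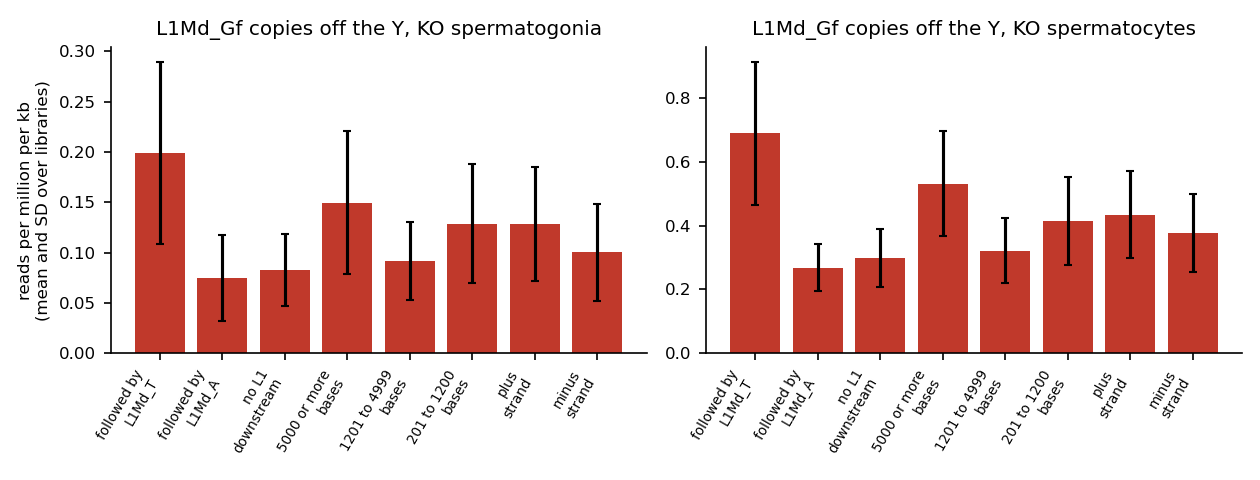
RPM per kb of annotated length (mean, with the SD over libraries as error bars) for classes of L1Md_Gf copies off the Y chromosome in KO spermatogonia (left, 3 libraries) and KO spermatocytes (right, 4 libraries). Copies followed by L1Md_T reach 0.199 and 0.691, the highest of the classes drawn, which leave out copies of up to 200 bases (0.366 and 1.21).

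Single copies were first tested with limma on log2(TPM + 0.1) over all TE copies whose TPM averaged 0.5 or more in a stage. In spermatogonia 152 L1Md_Gf copies were tested and 0 passed an adjusted p of 0.01, where 23 of 252388 TE copies did (0.00911%). The minimum itself favours copies that are high in KO, since 144 of the 152 averaged under 0.5 TPM in WT and 2 did so in KO, and the counts over tested copies are therefore descriptions. An unadjusted p under 0.05 was found for 79 of the 152, against 5.31% of all TE copies tested, and the groups did not overlap in 123, against 8.59%. The count of 79 became 24 of 152 after centring on TE families other than L1 and ERVK, where 10504 of 252388 TE copies had such a p, 51 of 166 without WT replicate 2 (12196 of 250180 TE copies) and 41 of 80 without KO replicate 1 (13686 of 247350). With every copy that had any TPM above 0 in the stage, 514 L1Md_Gf copies were tested and 1 was called, against 0.0355% of TE copies, the groups did not overlap in 224, against 5.48%, and the median log2 fold change was 1.30, beside 0.23 for all TE copies and 3.76 under the minimum. The edgeR test of the recovered reads, chosen after the data were seen and with its own minimum of reads, called 99 of 113 L1Md_Gf copies, all of them higher in KO, against 14% of 30843 TE copies. In spermatocytes limma tested 250 L1Md_Gf copies and called 165, all higher in KO, against 11.2% of 241893 TE copies, and the groups did not overlap in 216, against 19.1%. Of these 250, 245 averaged under 0.5 TPM in WT and 1 did so in KO. With every copy that had any TPM above 0, 119 of 608 L1Md_Gf copies were called, all higher, against 2.7% of 681997 TE copies, the groups did not overlap in 327, against 8.42%, and the median log2 fold change was 2.05 instead of 4.55, beside 0.75 for all TE copies. Of the long copies, 33 of 109 were called in this way and 45 of 52 under the minimum. The edgeR test of the reads called 182 of 184, with 181 higher and 1 lower, against 65.4% of TE copies.

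The spermatocyte count depends on the scale. With a pseudocount of 1 in place of 0.1 it was 105 of 250, where 18442 of 241893 TE copies were called. TPM values sum to a fixed total over TE copies. With TPM multiplied by the share of TE counts in the library, which takes that fixed total away, 198 of 250 copies were called, all higher, against 16.2% of all TE copies. After centring on TE families other than L1 and ERVK 9 of 250 were called, 8 higher and 1 lower, against 9.77% of all TE copies, of which 720 were higher and 22912 lower, and the median log2 fold change was 1.93 for L1Md_Gf and -1.23 for all TE copies. Spermatocyte replicates 1 and 4 resembled each other more than other pairs did in KO and WT alike, though beyond counting noise, and averaging them left 78 called of 239 copies, against 4.77% of all TE copies. Of the copies named below, centring took the spermatocyte calls of L1Md_Gf_dup893, L1Md_Gf_dup457, L1Md_Gf_dup947, L1Md_Gf_dup823, L1Md_Gf_dup344 and L1Md_Gf_dup1060 (3.58 to 4.55, limma adjusted p 0.0141 to 0.0461), and averaging took that of L1Md_Gf_dup1060 (5.77, adjusted p 0.0193).

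Many copies went from near silence in WT to clear levels in KO. Of the 113 copies with at least 10 reads in each KO spermatogonia library, 89 had at most 3 reads in every WT library and 49 had none, and against a floor of 3 reads per library the 89 were at least 3.95-fold to at least 87.5-fold higher in KO. In spermatocytes 170 of 198 such copies had at most 3 reads in every WT library and 103 had none, with bounds from 5.34-fold to 349-fold and a median of 28.6-fold. The limit of at least 10 reads in each KO library chooses copies that are high in KO.

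**Figure D4:**
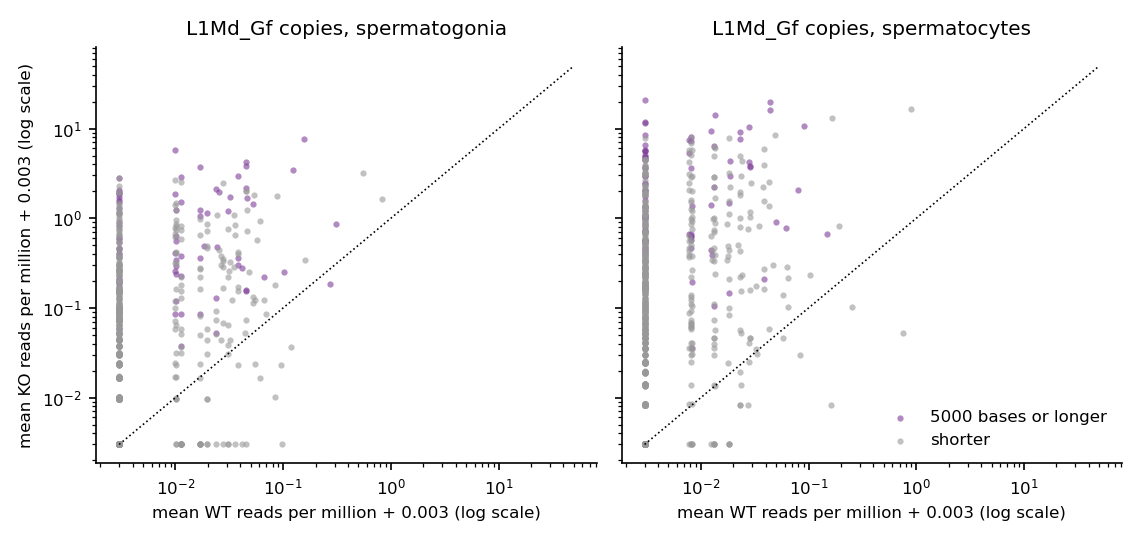
Mean RPM of each of the 1080 L1Md_Gf copies in KO (vertical) against WT (horizontal), with 0.003 added and both axes logarithmic, for spermatogonia (left) and spermatocytes (right). Purple points are copies of at least 5000 bases, grey points are shorter, and the dotted line marks equal levels, above which most copies with reads lie.

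Of the 5 copies with the most KO reads in each stage, named here after their values were seen, all were long and on the plus strand except L1Md_Gf_dup261 in spermatocytes. L1Md_Gf_dup893 (chromosome 12, 95822046 to 95828328, 6283 bases, followed by L1Md_T and in no annotated gene) had 530, 437 and 155 reads in KO spermatogonia and 21, 0 and 1 in WT. In spermatocytes it had 1248, 471, 845 and 1329 reads in KO and 0 in every WT library, at least 349-fold higher, with a log2 fold change of 7.17 on the TPM scale (SE 0.79, limma adjusted p 0.000295). It thus had the highest read count of all L1Md_Gf copies in both stages, with WT reads almost confined to 1 library of spermatogonia. L1Md_Gf_dup457 (chromosome X, 62840635 to 62846239, 5605 bases) had 373, 308 and 163 reads against 1, 0 and 0 in spermatogonia, at least 87.5-fold higher. In spermatocytes it had 1000, 474, 963 and 1177 against 0, 1, 7 and 0 (6.79, SE 0.80, limma adjusted p 0.000406).

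Other long copies behaved alike in their values. L1Md_Gf_dup947 (chromosome 14, 40546604 to 40553143), at 6540 bases the longest of all, had 280, 171 and 167 reads against 0, 0 and 6 in spermatogonia and 752, 305, 638 and 953 against 0, 0, 0 and 2 in spermatocytes. L1Md_Gf_dup823 (chromosome 10, 106390638 to 106396607) had 246, 196 and 95 against 0, 0 and 2, and 628, 279, 529 and 738 against 0 in all 4 WT libraries. L1Md_Gf_dup344 (chromosome 7, 61569861 to 61575121) lies in an intron of the noncoding gene B230209E15Rik in the opposite orientation, with 249, 215 and 90 against 2, 0 and 4 reads, and 825, 402, 788 and 997 against 1, 0, 5 and 2. Of the 111 long copies 105 had a read in KO spermatogonia and 109 in KO spermatocytes, and the quartiles of their mean level in KO spermatocytes were 0.355, 0.994 and 4.02 RPM (reads per 1000000 library counts). Copies of this length thus covered a wide range of levels, from 0 to 21.02 RPM.

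The copies highest by TPM were mostly short pieces, because TPM divides by length. L1Md_Gf_dup910 (chromosome 13, 16499821 to 16500000, 180 bases) is a piece that ends at an annotation boundary, with 89.5, 24.1 and 37.2 TPM in KO spermatogonia and 0 in WT, from 109, 52 and 52 reads. Its log2 fold change of 8.76 (SE 1.37) had the smallest limma adjusted p of the L1Md_Gf copies in spermatogonia, 0.0320, and it passed with a pseudocount of 1 (5.47, adjusted p 0.000488). In spermatocytes it had 170, 58.8, 116 and 158 TPM against 0, 0, 1.53 and 0 (9.18, SE 1.00, limma adjusted p 0.000292). L1Md_Gf_dup1013 (chromosome 16, 65000001 to 65000199, 199 bases) also starts at such a boundary, in an intron of the serotonin receptor gene Htr1f, with 74.2, 37.5, 55.4 and 137 TPM in KO spermatocytes and 0 in WT (9.41, SE 0.73, limma adjusted p 7.17e-05). L1Md_Gf_dup838 (chromosome 11, 45724438 to 45724817, 380 bases) had 43.5, 35.0, 39.0 and 54.9 TPM against 0 (8.73, SE 0.70, adjusted p 7.94e-05). Beside them stood L1Md_Gf_dup817, of 865 bases in an intron of the protocadherin gene Pcdh15 (61.1, 17.7, 38.0 and 65.7 TPM in KO against 0, 0.214, 1.27 and 0), and L1Md_Gf_dup339, of 208 bases (24.99, 19.9, 9.18 and 30.4 TPM against 0). L1Md_Gf_dup894, of 25 bases, reached 58.2, 16.1, 27.8 and 64.2 TPM from only 14, 4, 8 and 15 reads, and it lies close to L1Md_Gf_dup893 on chromosome 12.

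In WT only 1 copy of spermatogonia and 2 of spermatocytes had at least 10 reads in every library. L1Md_Gf_dup261 (chromosome 6, 21025180 to 21027289, minus strand, 2110 bases, in no gene) had 9, 28 and 36 reads in WT and 178, 264 and 21 in KO spermatogonia, with overlapping groups (log2 fold change 2.02, SE 1.34, limma adjusted p 0.784). In spermatocytes it had 42, 15, 76 and 43 reads in WT and 783, 136, 994 and 1108 in KO without overlap (2.99, SE 0.80, limma adjusted p 0.0253), while it stood at 0.36 (adjusted p 0.895) after centring on other TE families. It passed without KO replicate 2 (3.68, limma adjusted p 0.00373), with TPM times the TE share (4.75, adjusted p 0.00265) and on its reads in edgeR (3.58, adjusted p 0.000138). It had the most WT reads of all L1Md_Gf copies in spermatocytes and the third most KO reads. L1Md_Gf_dup1060 (chromosome 18, 43000001 to 43004030, minus strand), in an intron of Ppp2r2b, which encodes a subunit of protein phosphatase 2A, had 49, 37 and 25 reads in WT and 45, 110 and 78 in KO spermatogonia (0.80, SE 1.438, limma adjusted p 0.906). In spermatocytes it had 585, 246, 762 and 838 reads in KO and 0, 0, 32 and 0 in WT (6.20, SE 1.03, limma adjusted p 0.00197). The groups overlapped in spermatogonia and stood apart in spermatocytes.

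L1Md_Gf_dup345 (chromosome 7, 65193904 to 65198490, minus strand, 4587 bases, in no annotated gene) went the other way. Its reads in spermatocytes were 59, 19, 44 and 30 in WT and 0, 4, 2 and 3 in KO, without overlap. The log2 fold change was -3.41 on the TPM scale (SE 0.81, limma adjusted p 0.0138, not called, but 0.00891 without KO replicate 2, and 0.0030 at -6.03 after centring) and -4.60 on the recovered reads (edgeR adjusted p 5.37e-06), and it was the only L1Md_Gf copy called lower by either test with all libraries in. In spermatogonia it had 3, 0 and 0 reads in KO and 0, 7 and 5 in WT. L1Md_Gf_dup399, of 677 bases in an intron of Dock3, which encodes a guanine nucleotide exchange factor, had 16, 2, 25 and 7 reads in WT and 2, 5, 6 and 5 in KO spermatocytes, with overlapping groups (-1.83, SE 0.92, limma adjusted p 0.199). L1Md_Gf_dup499, of 224 bases in an intron of Cenpi, a centromere protein gene, had 5, 3 and 3 reads in WT and 3, 7 and 15 in KO spermatogonia (0.75, SE 1.29, limma adjusted p 0.897).

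**Figure D5:**
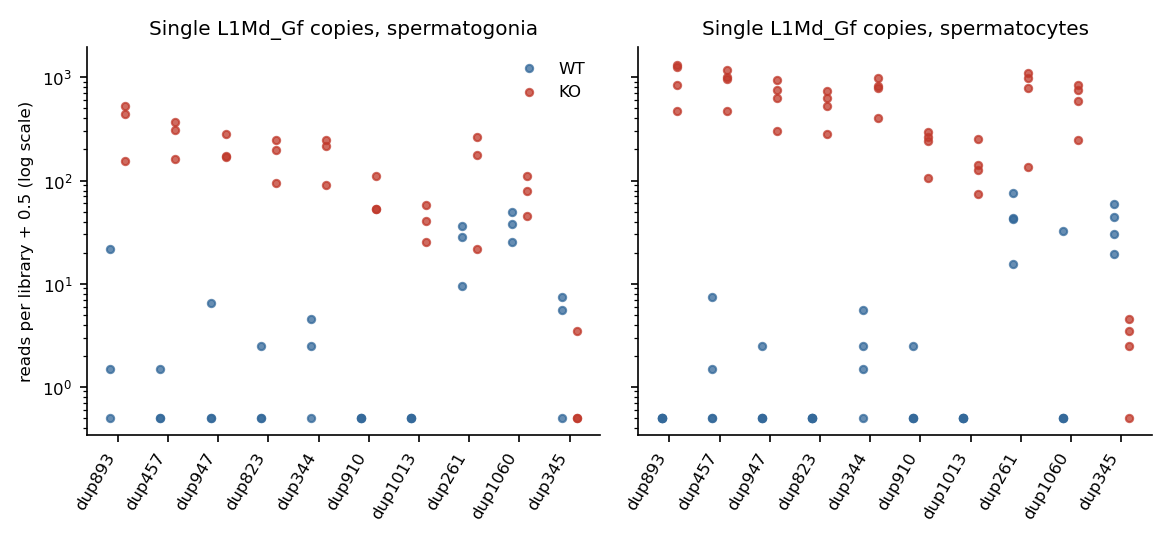
Reads per library, with 0.5 added and on a log axis, of 10 L1Md_Gf copies (dup numbers as in the text) in spermatogonia (left) and spermatocytes (right), with WT in blue and KO in red. KO lies above WT for the copies on the left of each panel, and dup345 lies lower in KO than in WT spermatocytes.

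KO spermatocytes were set beside KO spermatogonia copy by copy, as RPM and without a test. Of 176 copies with at least 30 reads summed over the KO spermatogonia libraries, 172 had a higher mean in KO spermatocytes, with a median ratio of 3.31 (quartiles 2.86 and 4.03), and in 107 each of the 4 spermatocyte libraries lay above each of the 3 spermatogonia libraries. The median ratio was 3.45 for the 64 long copies and 3.21 for the other 112, and 3.33 both for copies followed by L1Md_T and for those with no L1 downstream. Classes that differed in level therefore had similar ratios between the stages. The same counts were not made for all TE copies, so the 172 and 107 have no background to be set against. Over TE subfamilies the median edgeR log2 fold change between these KO groups was 0.502, and over L1 subfamilies 0.656, beside 1.89 for L1Md_Gf. The part of such a general rise in the copy ratios was not tested. The largest ratios were 8.25 for L1Md_Gf_dup324 (chromosome 7, 26283785 to 26289392), with 31, 15 and 6 reads in KO spermatogonia and 171, 115, 123 and 135 in KO spermatocytes, and 8.09 for L1Md_Gf_dup1060. L1Md_Gf_dup39 (chromosome 1, 108416039 to 108416876) had the smallest, 0.695, with 36, 10 and 6 against 2, 28, 13 and 2 reads.

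Genes that hold L1Md_Gf copies were described last, since an L1 can lie in a transcript of its host. In GENCODE M21 191 copies lay in the bodies of 164 genes, 91 of the gene and copy pairs in the orientation of the gene and 108 opposite to it, and all but 6 pairs were intronic. In spermatogonia 0 of 94 such genes passed the edgeR threshold, where 9 of 20659 genes did (0.0436%). Of the 94, 20 had an unadjusted p under 0.05, which is 21.3% beside 7.3% of all genes. DESeq2's Wald test called 11 of 116 (9.48%), beside 2.51% of all genes, and the fit with the replicate number as a block called 1 of 94, beside 0.523% of all genes. This was Gm17177 (log2 fold change 3.10, SE 0.33, edgeR adjusted p 0.00630). In spermatocytes 69 of 108 passed, 37 higher and 32 lower, which is 63.9% beside 58.8% of all genes. Of the 26 genes tested that hold a copy called by limma, 16 passed, 6 higher and 10 lower, which is 61.5% and near the 58.8% of all genes.

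Of these 16 genes 8 held the copy in their own orientation and 8 in the opposite one, all in introns, and the 4 named here are of the second kind. Gm5142 (log2 fold change -8.69, SE 0.70, edgeR adjusted p 7.86e-06) fell from 75.3 ± 49.4 to 0.180 ± 0.0753 CPM, while its copy L1Md_Gf_dup953 had 247 reads in KO and 0 in WT. Crisp2, which encodes a secreted protein of the sperm acrosome and tail, fell from 1621 ± 791 to 6.49 ± 3.74 CPM (-7.96, SE 0.69, adjusted p 1.20e-05), and its copy had 665 reads in KO and 0 in WT. Dcaf6, a substrate receptor of a ubiquitin ligase, fell from 372 ± 61.2 to 89.2 ± 6.26 CPM (-2.06, SE 0.19, adjusted p 1.50e-05) beside 378 and 0 reads on its copy. Akr1c14, a hydroxysteroid dehydrogenase, rose from 0.164 ± 0.0689 to 5.24 ± 2.39 CPM (4.96, SE 0.53, adjusted p 4.10e-05) beside 542 and 0 reads. The pachytene markers fell and the Leydig markers, at 37.6 to 227 CPM in KO and 9.85 to 19.0 in WT spermatocytes, rose in these same libraries, and their part in the host gene values was not tested. In spermatogonia none of the 3 genes tested there, Dcaf6, Crisp2 and Akr1c14, passed the threshold (edgeR adjusted p 0.137 to 0.9996), while DESeq2's Wald test called Crisp2 lower there (-6.12, adjusted p 0.000392).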

How the data were processed

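The authors aligned polyadenylated, strand-specific RNA reads to GRCm38 with STAR 2.7.3a after cutadapt 4.0, kept up to 100 alignments per read and, using GENCODE M25, counted genes and TE subfamilies with TEtranscripts 2.2.3, so the deposited values are raw counts. For single TE copies the authors deposited TPM values from TElocal 1.1.1, whose total in each library is 1000000 without genes. Tools of the labels' processing notes, DESeq2 1.44.0 included, are given as listed there. The log2 fold changes and adjusted p-values that the authors deposited beside the counts come from their own comparisons and were not used. Reads that match many copies are shared among them, which limits what a single copy's value can show.

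Counts were tested with edgeR 4.0.16 (filterByExpr, TMM, quasi-likelihood fits) in R 4.3.3, each stage alone and all 14 libraries together for contrasts between stages. For copies whose TPM averaged 0.5 or more, limma 3.58.1 (trend) was run on log2(TPM + 0.1), a scale that understates changes of low copies. Calls were made at a two-sided Benjamini-Hochberg adjusted p under 0.01 over all features. Ratios and shares were tested by two-sided exact permutation. TPM times length, divided by its smallest value in the library, gave whole numbers (within 0.01) for 100% of values, taken as reads, and edgeR was run on them as an alternative added once the data had been seen. The edgeR fits within a stage and the limma fits were tried on simulated data, the latter on normal values, unlike copies without reads in WT. The permutation tests, DESeq2's Wald test, contrasts between stages, the replicate block and edgeR on recovered reads were not. Alternatives used DESeq2 1.42.0, and the rest Python 3.11.15, NumPy 2.4.6, SciPy 1.17.1, pandas 2.3.3 and matplotlib 3.10.9. Positions of copies are those of the deposited tables (GRCm38), genes around them are from GENCODE M21, and sequence is from its transcripts. Promoter windows are from RefSeq.

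The members, lists and tests were chosen with earlier results of these data known. Subfamilies named are the 6 young ones. Copies named are, in each stage, the 5 with the highest mean KO TPM, the 3 with the highest mean WT TPM and up to 5 called rises and 3 called falls of the largest size without overlap, beside those said to be chosen after their values were seen. Host genes named are up to 5 per stage with the smallest p among called genes that hold a called copy, of which 1 is not reported here. KO and WT spermatogonia libraries of equal number deviated together from their group means (correlations over features 0.519, 0.167 and 0.181). However, KO replicate 2 also went with WT replicate 3, at 0.263. These numbers were taken as a possible pairing of the libraries, and those of spermatocytes were not (0.077, 0.208, -0.005 and 0.120). The main fits and the permutation tests were unpaired, and the replicate number as a block was an alternative. The spermatogonia columns numbered rep4 belong to the samples titled replicate 3. Nothing says which libraries came from which animals, so p-values measure the spread between these libraries.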

Additional observations from a re-analysis of the deposited data

Results flagged for a closer look

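Values far from the other libraries of their group were looked for in spermatocytes, where groups of 4 allow it, by the gap to the nearest library over the whole range of the group. Of 39 groups 3 stood out, and chance marks about 1 in 20. L1Md_Gf_dup399 stood at 0.307 TPM in 1 KO library and at 0.744 to 0.790 in the other 3. L1Md_Gf_dup499 reached 3.82 TPM, from 8 reads, in 1 KO library against 0 to 0.464 in the others. L1Md_A, the relative used in the ratio, stood at 304 CPM in 1 WT library against 133 to 161 in the others. The KO effect on L1Md_A differed between the stages, by 2.38 on the log2 scale (edgeR adjusted p 0.00380, interaction term, but 0.0106 without KO replicate 3 of the spermatogonia and 0.0159 with spermatocyte replicates 1 and 4 summed), and that on L1Md_Gf did not pass the same test.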

How the results depend on the processing

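The subfamily rises kept their direction under every alternative run, with log2 fold changes of 4.33 to 4.96 in spermatogonia and 5.75 to 6.66 in spermatocytes. Leaving out 1 library gave 4.33 to 4.96 (adjusted p 0.000751 to 0.0209) in spermatogonia, 5.75 to 6.40 in spermatocytes, 1.08 to 1.77 for the difference of KO effects, 1.53 to 2.18 for KO and 0.21 to 0.81 for WT spermatocytes against spermatogonia. KO spermatocytes against KO spermatogonia passed in DESeq2's Wald test (1.88), and the WT comparison turned to -0.22 with library totals. The replicate number as a block gave 4.53 (adjusted p 0.000603) in spermatogonia and 6.13 in spermatocytes, called 66 of 250 spermatocyte copies (9601 of 241893 TE copies in all), and changed 1 call among the genes holding copies in spermatogonia, from 0 to 1. Copies called in spermatogonia numbered 2 of 152 with a pseudocount of 1 (207 of 252388 TE copies in all), 2 of 307 with a mean TPM of at least 0.1 (366 of 472851), 1 of 514 with any TPM above 0 (200 of 562637), 1 of 152 at an adjusted p under 0.05 (95 of 252388) and 99 of 113 on recovered reads (4331 of 30843), and 0 without any 1 library. In spermatocytes they numbered 105 of 250 with a pseudocount of 1 (18442 of 241893), 90 of 93 with a mean TPM of at least 2 (18061 of 84276), 9 of 250 after centring on other TE families (23632 of 241893), 78 of 239 with replicates 1 and 4 averaged (11577 of 242673), and without 1 library from 118 of 260 (16476 of 249925, without WT replicate 1) to 199 of 245 (32998 of 235947, without KO replicate 2). Genes holding copies called in spermatogonia numbered 11 of 116 with DESeq2 (591 of 23587 genes in all) and 3 of 140 (Gm17177, Cdh12 and Csmd1) with at least 1 count (144 of 32667). In place of counts, summed TPM gave differences of 1.444 and 1.494 in the log2 ratio to L1Md_T and 3.004 and 2.24 in that to L1Md_A, in spermatogonia and spermatocytes. Without 1 library the ratio to L1Md_T differed by 0.41 to 0.60 and 0.22 to 0.62, and that to L1Md_A by 0.91 to 1.26 and -0.00056 to 0.51. The share of long copies differed by 18.1 points in reads, 3.25 with a limit of 3000 and 2.84 with 6000 bases in spermatogonia, and in spermatocytes by 34.0 in reads, 3.28 with a limit of 3000 and 3.54 with 6000 bases, and without 1 library by 3.72 to 8.45 and 10.7 to 11.2. The share of the 5 highest copies differed by -13.3 points in spermatogonia, and without 1 library that of the 10 highest by -25.2 to -19.2 and -33.1 to -25.1. L1Md_Gf_dup399 in spermatogonia changed sign with a pseudocount of 1 (0.12), with TPM times the TE share (0.0613) and without 1 library (-0.57 to 0.66), and L1Md_Gf_dup499 (-0.10 and -0.0585 in the stages) and L1Md_Gf_dup1060 (-0.0445) after centring, all uncalled. The cause was not tested in any of these. Searches of L1Md_Gf promoters for motifs, CG content and reading frames were not run, as no genome was at hand. WT values of single copies rest on few reads and limit each fold.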
